A study of Caenorhabditis elegans with 83 samples.

Results

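The str and sri genes are families of Caenorhabditis elegans chemoreceptors, and the small RNA counts over them are described here for animals that lack one or both of the histone methyltransferases MET-2 and SET-25. The genes were taken as every one whose WBcel235 gene name starts with str- or sri-, without regard to their counts. There were 254, of which 193 were str and 61 sri genes. The SX1263 libraries held rows for 252 of their 20449 genes and the EG6089 libraries for 250 of their 20390 genes.

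Chemoreceptors of these families are G protein-coupled receptors that sit mostly in the cilia of sensory neurons in the head and tail, where binding of an odorant or pheromone signals through G proteins and cyclic GMP or TRPV channels. Most family members are found in few neurons each, so that in RNA of a whole animal they are rare. MET-2 adds the first methyl groups to lysine 9 of histone H3 and SET-25 the last one, marks that sit on silent chromatin, much of it on the chromosome arms where chemoreceptor genes lie in clusters. Many worm genes are also templates for endogenous small RNAs, made on their transcripts by RNA-dependent RNA polymerases. The counts below are of small RNAs on these genes and not of their mRNA.

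Small RNAs of whole day 1 adults grown at 20 degrees were sequenced in 83 libraries, 59 from the SX1263 background and 24 from EG6089. SX1263 gave met-2(n4256), set-25(n5021), met-2(n4256);set-25(n5021) and wild-type animals at P0 and F3, and met-2(n4256) and wild-type animals also at F15. EG6089 gave met-2(n4256);set-25(n5021) and wild-type animals at P0 and F3. Each of these 14 groups exists as anti-GFP and as control libraries. The strain with both alleles is called the double mutant below. P0 animals of the anti-GFP groups ate bacteria making GFP dsRNA and P0 controls ate empty-vector bacteria, whereas the later generations all ate OP-50, so P0 also differs from F3 and F15 in food. Groups held 3 libraries, except wild-type SX1263 anti-GFP at P0 with 2. The labels do not say whether replicates were separate cultures, so p-values measure the spread between libraries, which may be technical. The mutations affect every tissue, and in whole animals fewer cells of a type and fewer small RNAs per cell cannot be told apart. Gene counts per library were 3583283 to 18225929 in SX1263 and 2134929 to 6102965 in EG6089, which puts 3 counts at 0.165 to 0.837 and at 0.492 to 1.41 counts per 1000000 (CPM). Small RNAs on met-2 itself were lower in the mutants that carry n4256 by 1.76 to 2.02 on the log2 scale. Those on set-25 changed in the set-25 single mutant by -0.54 at P0 (adjusted p = 0.00759, edgeR) and -0.57 at F3 (adjusted p = 0.0857), and about as much in the met-2 single mutant, by -0.49 at P0 (adjusted p = 0.00109), -0.43 at F3 (adjusted p = 0.0416) and -0.46 at F15 (adjusted p = 0.00597), so that they did not mark the set-25 genotype. In the double mutants of both backgrounds they changed by -1.16 to -1.56.

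Small RNAs on str and sri genes were scarce. Over the 59 SX1263 libraries they had 40543 counts in all, which is 0.00813% of gene counts from 1.23% of the gene rows. The median str or sri gene had 9 counts over all libraries together, against 792 for the other genes. Of the 252 genes with a row, 23 had no count in any library, 77 had 11 to 100 counts, 39 had more than 100 and the rest had 1 to 10. The 5 genes with most counts held 56.3% of the families' total, and the 10 with most held 71.3%. The families were alike in this, with a median of 8 counts for str and 17 for sri genes. In EG6089 they had 8735 counts, 0.00921% of the total, and 88 genes had none. An exact 0 here is a limit of depth and does not show that a gene gives no small RNAs.

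**Figure D1:**
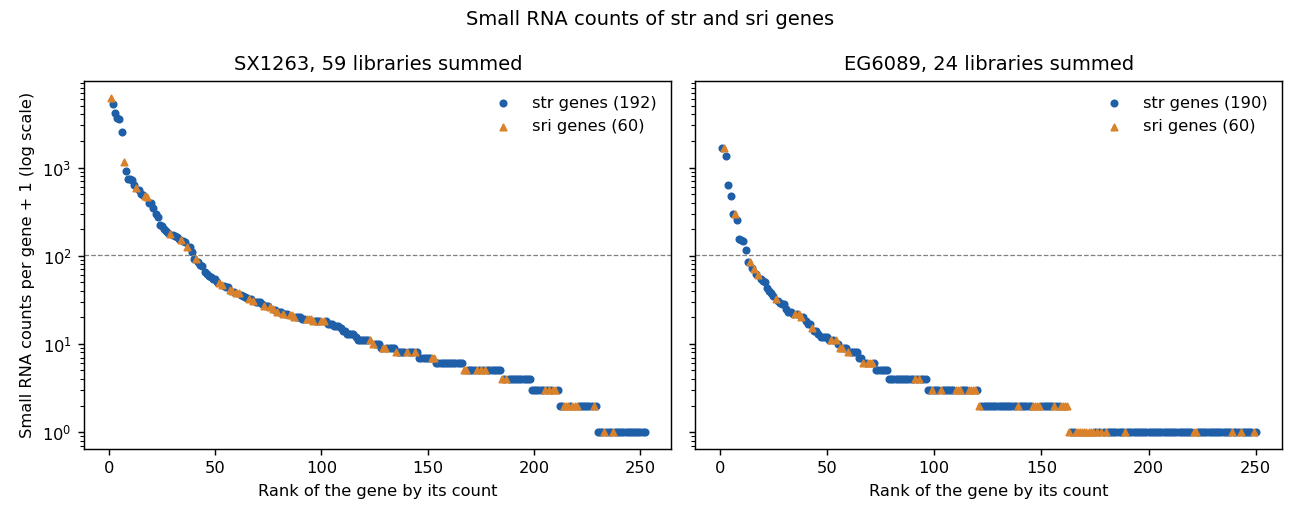
Small RNA counts per str gene (blue circles) and sri gene (orange triangles), summed over all libraries of a background plus 1, on a log axis, against the rank of the gene by its count; the dashed line marks 100 counts. In SX1263, 39 of 252 genes lie above 100 counts, and in EG6089, 12 of 250 do.

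The plot of counts by rank shows the steep start and long tail in both backgrounds. Per kb of exon, the highest levels in wild-type SX1263 controls were those of str-245 (15.2 CPM per kb), sri-5 (10.4), str-172 (9.29), str-8 (7.74), str-68 (6.57) and str-214 (4.63). In wild-type EG6089 controls the highest were str-245 (32.2 CPM per kb), sri-5 (16.2), str-172 (10.9), str-227 (5.20), str-8 (4.88) and str-68 (4.67). The same 5 genes thus stood among the highest 6 in both backgrounds. The str genes lie mainly on chromosome V, which holds 157 of them, and on IV with 27. The sri genes lie on II with 31, on V with 21, on I with 8 and on IV with 1. Another str or sri gene lies within 10 kb of 172 of the 254, and 40 overlap some other annotated gene, 30 of these on the opposite strand. Since the strand used in counting is not given in the sources used here, counts of overlapping or antisense genes cannot be told apart, and the same holds for near-identical copies within clusters.

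The low counts decide how many of the genes could be tested. The low-count filter kept 28 of them at P0 and 20 at F3 in SX1263, 13 at F15, and 9 at each generation in EG6089. Over all comparisons 31 genes were tested at least once, 25 str and 6 sri genes, and 223 never were. The tested genes are therefore the abundant end of the families, and part of them did not enter through wild type. In SX1263 the cutoff was reached in all wild-type control libraries by 10 of the 28 genes at P0, 9 of the 20 at F3 and 6 of the 13 at F15. At P0 in SX1263, str-37, str-141 and str-211 reached the filter's cutoff of 0.947 CPM in all libraries of met-2 and not of wild type, sri-67, str-37, str-170, str-190 and str-211 did so in the double mutant, and str-170 and str-211 in set-25. The same held at F3 for str-37 in met-2 and the double mutant, for str-99 in met-2 and set-25 and for str-227 in set-25, and also for str-164 in met-2 at F15 and for str-214 in the EG6089 double mutant. A filter of this kind favours genes that are high in 1 of the groups, and the counts of rises below include such genes. Falls are affected in the same way. All libraries of wild type and not of the mutant reached the cutoff for 3 genes in met-2 and 2 in the double mutant at P0 in SX1263. At F3 this held for 5 genes in met-2 and 4 in the double mutant, and at F15 for 5 of 13 in met-2. In EG6089 it held for 3 of 9 genes at P0 and 4 of 9 at F3.

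Against wild-type controls, 20 of the 28 genes tested in a mutant comparison were called in at least 1 of the 9 comparisons, as were 70.9% of all tested genes. They were called higher in every call for 7 genes (sri-67, str-37, str-141, str-164, str-182, str-190 and str-211) and lower in every call for 10 (sri-5, str-8, str-9, str-12, str-90, str-208, str-227, str-238, str-245 and str-262), against 35.2% and 31.3% of all genes. The other 3 genes, str-68, str-172 and str-214, were called in both directions (4.38% of all genes), depending on the genotype, generation or background. No call was made for sri-16, sri-18, sri-31, sri-62, str-46, str-99, str-170 and str-240. A call is a Benjamini-Hochberg adjusted p under 0.05 over all genes tested, from edgeR's quasi-likelihood test. At P0 in SX1263, 5 of 28 genes were higher and 5 lower in met-2, where 23.5% of all tested genes were called, 13.5% higher and 9.93% lower. In the double mutant 6 were higher and 3 lower, where 25.3% of all genes were called, 11.2% higher and 14.1% lower. At F3, 3 of 20 were higher and 4 lower in met-2, where 28.1% of all genes were called, 17.9% higher and 10.3% lower. There 5 were higher and 5 lower in the double mutant, against 38.3% of all genes, 18.6% higher and 19.7% lower. In set-25, 1 gene was lower at P0 (0.956% of all genes called, 0.577% lower) and none was called at F3 (1.11%). At F3 in set-25 an unadjusted p under 0.05 was reached by 2 of the 20 genes, and DESeq2 called 1. In these 6 comparisons the mutants of a generation share their wild-type libraries.

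Of the genes called higher at P0, 3 of the 5 in met-2 and 4 of the 6 in the double mutant reached the cutoff in all libraries of the mutant and not of wild type. So did 1 of 3 and 1 of 5 at F3, 1 of 2 at F15, 1 of 1 at P0 in EG6089 and 1 of 2 at F3 there. Passing through fewer libraries or through another group is not counted here. Every wild-type control library also lay below the cutoff for str-182 and sri-67 at P0 and for str-190 at F3, which were called higher in both mutants. The counts and medians are therefore descriptions of the genes that passed the filter. The median difference of the tested genes at P0 was 0.23 on the log2 scale in met-2 and 0.15 in the double mutant, against -0.01 and 0.01 over all tested genes. At F3 it was -0.50 in met-2 and -0.37 in the double mutant, against 0.03 and 0.04. At F15, 2 of 13 genes were higher and 8 lower in met-2 (36.5% of all genes called, 19.1% higher and 17.4% lower), with a median of -2.58 against -0.01. In EG6089, 1 of 9 genes was higher and 4 were lower in the double mutant at P0 (45.9% of all genes called, 18.5% higher and 27.4% lower), with a median of -0.44 against -0.11. At F3 in EG6089, 2 of 9 were higher and 4 lower (50.9% of all genes called, 23.7% higher and 27.1% lower), with a median of -0.28 against -0.01.

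**Figure D2:**
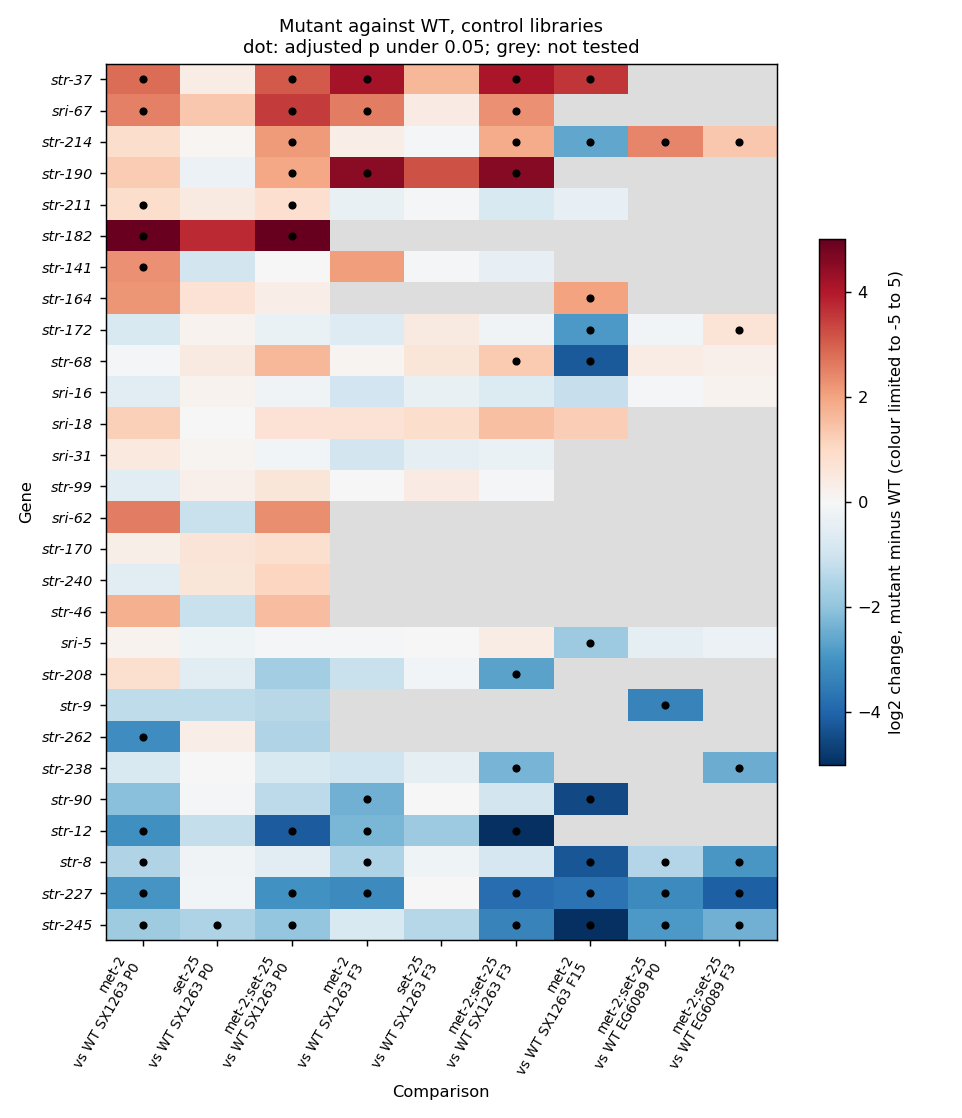
Log2 difference of small RNA level between mutant and wild type (colour, limited to 5 either way) for the 28 str and sri genes tested in a mutant comparison (rows) in the 9 comparisons of control libraries (columns), with a dot for an adjusted p under 0.05 and grey for not tested. The row of str-227 is blue with a dot wherever met-2 was mutated, and the set-25 columns hold 1 dot, for str-245.

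In the map of differences str-227 and str-245 had the most calls, each in 7 of the 9 comparisons. The gene str-227 encodes a receptor on chromosome V (WBGene00006258, 3518189 to 3519801, plus strand), and an annotated non-coding RNA, C07G3.13, overlaps it. At P0 its small RNAs stood at 0.468, 0.553 and 0.233 CPM in met-2 controls, 3.10, 3.30 and 2.71 CPM in set-25 controls and 0.373, 0.577 and 0.229 CPM in double-mutant controls, against 3.78, 3.28 and 2.75 CPM in wild-type controls. The met-2 and double-mutant libraries all lay below every set-25 and wild-type library. The log2 change was -2.95 (SE 0.37, adjusted p = 9.96e-06, edgeR) in met-2 and -3.04 (SE 0.38, adjusted p = 1.21e-05) in the double mutant.

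The fall in str-227 was found at each later generation too. At F3 it had 0.432, 0.140 and 0 CPM in met-2, against 2.03, 2.07 and 1.34 CPM in wild type (log2 change -3.19, SE 0.78, adjusted p = 0.00471, edgeR). The double mutant at F3 had 2 counts over its 3 libraries against 39 in wild type, a pooled ratio of wild type to double mutant of 16.02 with a 95% counting interval of 4.15 to 137 (adjusted p = 0.00281, edgeR). At F15, met-2 had 3 counts against 56 in wild type, a pooled ratio of wild type to met-2 of 14.5 with an interval of 4.73 to 72.6 (adjusted p = 0.00148, edgeR). Without molecular identifiers in the reads, such intervals take in counting error and nothing more.

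Taken over all libraries of SX1263, anti-GFP libraries included, str-227 separated the genotypes by the state of met-2. The 18 met-2 libraries ran from 0 to 0.553 CPM with a median of 0.172, and the 12 double-mutant libraries from 0 to 0.676 CPM with a median of 0.306. The 12 set-25 libraries ran from 1.49 to 5.16 CPM with a median of 2.57, and the 17 wild-type libraries from 1.02 to 3.78 CPM with a median of 2.19. No library with the met-2 mutation reached the lowest library without it, whereas the set-25 and wild-type ranges overlapped. The gene was picked by its calls in the control libraries among these, so the separation describes it and is no separate test. How many of all genes separate the genotypes in this way was not computed.

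The receptor gene str-12 was lower in the same strains (WBGene00006080, chromosome V, 15610890 to 15612591, plus strand). At P0 it had 0.312, 0.158 and 0.156 CPM in met-2, against 1.40, 2.33 and 1.72 CPM in wild type (log2 change -3.05, SE 0.40, adjusted p = 1.79e-05, edgeR). The double mutant had 0.149, 0.0962 and 0 CPM at P0, 3 counts in all, and 0 counts in each of its 3 libraries at F3. Against this, wild type had 3.34, 3.39 and 1.51 CPM at F3, which makes the double mutant at least 15.9-fold lower, by a floor of 3 counts over the group (adjusted p = 1.54e-05, edgeR). The met-2 libraries at F3 had 0.577, 0.281 and 0.787 CPM (log2 change from wild type -2.29, SE 0.49, adjusted p = 0.00195, edgeR) and stood above every double-mutant library. In set-25 the gene had 0.733, 0.824 and 0.787 CPM at P0 and 0.586, 0.561 and 1.25 CPM at F3. These values also lay below every wild-type library of their generation, though the changes of -1.20 (adjusted p = 0.171, edgeR) and -1.80 (adjusted p = 0.0700) did not pass the test.

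**Figure D3:**
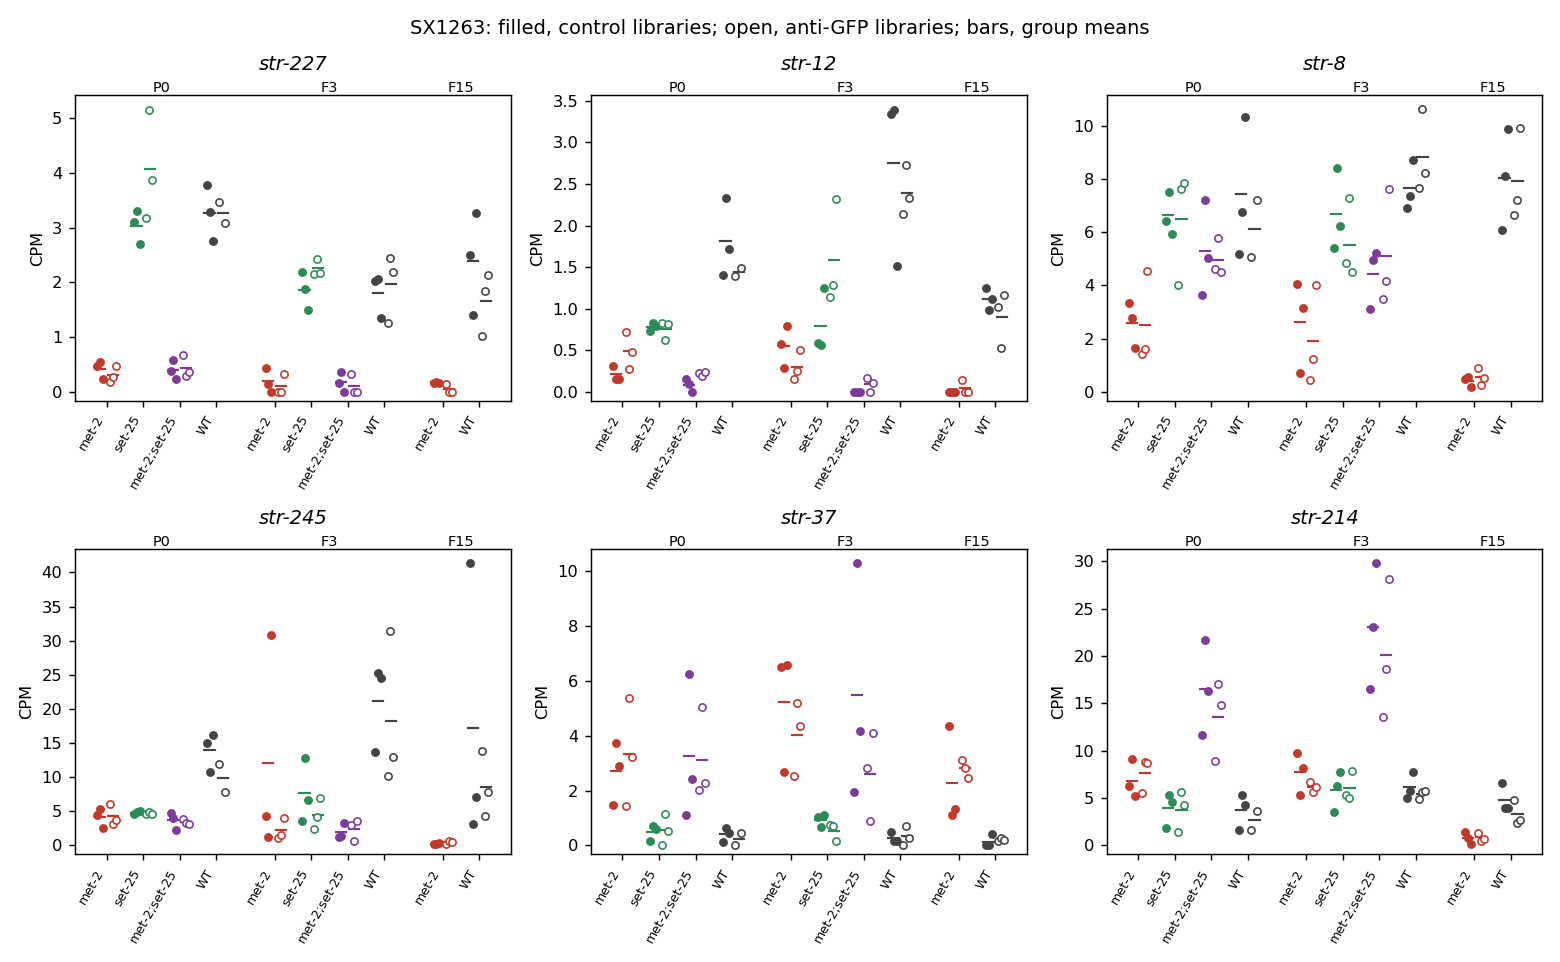
Small RNA level in CPM (linear axes, each gene on its own scale) of 6 str genes in every SX1263 library, by generation and genotype, with mutants left of wild type; filled points are control libraries, open points anti-GFP libraries and bars group means. Red met-2 and purple double-mutant points lie below the green set-25 and grey wild-type points for str-227 and above them for str-37 in nearly all libraries.

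The plot of library levels shows that str-8 (WBGene00006076, chromosome V, 15755031 to 15756394, plus strand) fell in met-2 by a smaller step at P0 and F3. It had 3.36, 2.77 and 1.63 CPM in met-2 at P0, against 5.18, 6.77 and 10.3 CPM in wild type, without overlap. The log2 change of -1.52 (SE 0.41, adjusted p = 0.0107, edgeR) was not called without wild-type replicate 3 or met-2 replicate 3. At F3 met-2 had 4.04, 0.701 and 3.15 CPM, against 6.91, 7.38 and 8.71 CPM in wild type (log2 change -1.53, adjusted p = 0.0444, edgeR), a call lost without any of 5 of the 6 libraries. In set-25, with 6.43, 7.52 and 5.94 CPM at P0, and in the double mutant, with 3.66, 7.22 and 5.03 CPM, the gene was not called.

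The most abundant gene of these families, str-245, was the 1 gene called in set-25. It lies on chromosome I (WBGene00006272, 14852818 to 14854711, plus strand) and overlaps aex-5 on the minus strand, a gene for a proprotein convertase of the defecation motor program. At P0 str-245 had 4.53, 5.37 and 2.49 CPM in met-2, 4.56, 4.84 and 4.98 CPM in set-25 and 4.70, 4.04 and 2.29 CPM in the double mutant, against 15.1, 10.8 and 16.2 CPM in wild type. All 9 mutant libraries lay below all 3 wild-type libraries. The log2 change was -1.77 (adjusted p = 0.000293, edgeR) in met-2, -1.55 (adjusted p = 0.0128) in set-25 and -1.95 (adjusted p = 0.00014) in the double mutant. The set-25 call was lost without any of 5 of the 6 libraries, with an adjusted p of up to 0.0780, and was not made in the anti-GFP libraries.

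Small RNAs on aex-5 fell as well at P0, by 2.93 in met-2, to 1.04 ± 0.0960 CPM against 7.96 ± 2.64 CPM in wild type (SD, n = 3 each). They fell by 2.26 in set-25 and by 2.72 in the double mutant on the log2 scale, and the counts of the 2 overlapping genes cannot be told apart. At F3 str-245 varied more. The met-2 libraries had 4.32, 1.26 and 30.8 CPM, of which replicate 3 lay above wild type, with 13.7, 25.2 and 24.5 CPM, and no call was made. The double mutant had 1.31, 1.42 and 3.32 CPM, below every wild-type library (log2 change -3.33, SE 0.92, adjusted p = 0.00815, edgeR).

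Among the genes with more small RNAs in the mutants, str-37 was called in met-2 at every generation (WBGene00006102, chromosome V, 13327763 to 13329058, plus strand). At F3 it had 6.49, 2.66 and 6.56 CPM in met-2, 1.03, 0.655 and 1.12 CPM in set-25 and 1.96, 10.3 and 4.15 CPM in the double mutant, against 0.477, 0.148 and 0.168 CPM in wild type. Every library of the 3 mutants lay above every wild-type library, and those of met-2 and the double mutant above those of set-25. The log2 change was 4.16 (SE 0.81, adjusted p = 0.000792, edgeR) in met-2 and 4.06 (SE 0.83, adjusted p = 0.000862) in the double mutant, while set-25 was not called.

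At P0 str-37 stood at 1.48, 3.71 and 2.88 CPM in met-2, against 0.122, 0.634 and 0.458 CPM in wild type (log2 change 2.80, adjusted p = 0.0346, edgeR). That call was lost without any of 5 of the 6 libraries, and the one in the double mutant (log2 change 3.05, adjusted p = 0.0212) without any of 3. At F15 met-2 had 4.36, 1.13 and 1.32 CPM, against 0, 0 and 0.407 CPM in wild type (log2 change 3.59, SE 0.82, adjusted p = 0.00668, edgeR). The 3 genes called the same way in met-2 at P0, F3 and F15 were thus str-37, which rose, and str-8 and str-227, which fell.

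The gene str-214 rose in the double mutant (WBGene00006247, chromosome V, 16315304 to 16317226, plus strand). At F3 it had 16.5, 23.0 and 29.8 CPM in the double mutant, 9.80, 5.33 and 8.13 CPM in met-2 and 3.51, 6.27 and 7.72 CPM in set-25, against 5.01, 5.76 and 7.71 CPM in wild type. The double-mutant libraries lay above all others, and those of both single mutants overlapped wild type. The change in the double mutant was 1.86 on the log2 scale (SE 0.33, adjusted p = 0.000271, edgeR). At P0 the double mutant had 11.6, 21.7 and 16.3 CPM, against 1.65, 5.29 and 4.24 CPM in wild type (log2 change 2.14, SE 0.51, adjusted p = 0.00487, edgeR).

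The neighbour by abundance, str-68 (WBGene00006130, chromosome V, 3106228 to 3107550, minus strand), also rose in the double mutant at F3. It had 13.9, 13.5 and 12.6 CPM there, against 5.60, 4.43 and 5.36 CPM in wild type (log2 change 1.31, adjusted p = 0.0158, edgeR), a call that was lost without wild-type replicate 2 (adjusted p = 0.0638). Its P0 values of 11.3, 29.4 and 21.1 CPM in the double mutant lay above the 7.38, 5.82 and 5.96 CPM of wild type and were not called.

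The remaining rises concerned genes near the limit of detection. In the double mutant at P0 sri-67 had 3.13, 3.66 and 1.94 CPM and in met-2 2.03, 1.74 and 0.623 CPM, against 0.427, 0 and 0.229 CPM in wild type, without overlap (adjusted p = 0.000201 and 0.00378, edgeR). At F3 the ranges of sri-67 overlapped wild type in both mutants, and the calls were lost without any of 3 libraries in met-2 and any of 5 in the double mutant. At F3 str-190 had 32 counts in met-2 and 27 in the double mutant against 1 in wild type, pooled ratios of 31.2 (95% counting interval 5.21 to 1269) and 32.9 (5.42 to 1345). The 3 libraries of either mutant all lay above wild type. At P0 str-182 had 14 counts in met-2 and 12 in the double mutant against 0 in wild type, at least 4.20-fold and at least 4.76-fold higher by the floor of 3 counts. For str-141, met-2 had 1.80, 4.74 and 1.25 CPM at P0, against 0.488, 0.529 and 0.573 CPM in wild type (adjusted p = 0.0263, edgeR), a call lost without any of 4 of the 6 libraries. The rise of str-211 at P0 was the smallest, 0.88 in met-2 and 0.84 in the double mutant on the log2 scale. The calls of str-182, str-190 and str-211 were not followed gene by gene with single libraries left out. In the anti-GFP libraries, str-182 in met-2 at P0 and str-190 in met-2 at F3 were not called, whereas both were called in the double mutant at those generations.

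Other falls were called in 1 or 2 of the 9 comparisons per gene. At F3 in the double mutant, str-208 had 0, 0 and 0.712 CPM, against 1.79, 2.21 and 2.35 CPM in wild type (adjusted p = 0.028, edgeR). There str-238 had 0.164, 0.354 and 0.475 CPM, against 2.62, 0.886 and 1.51 CPM in wild type (adjusted p = 0.0129, edgeR). Neither group pair overlapped, but the calls were lost without any of 4 and any of 2 of the 6 libraries. At P0 str-262 had 2 counts in met-2 against 19 in wild type (adjusted p = 0.0179, edgeR). The pooled ratio of wild type to met-2 was 10.5 with a 95% counting interval of 2.54 to 93.2. With 1 of the 6 libraries left out, str-262 passed the filter in only 1 fit, where the call held. At F3 str-90 had 0.721, 0.140 and 0 CPM in met-2, against 2.15, 0.443 and 2.01 CPM in wild type, which overlapped (adjusted p = 0.0239, edgeR, lost without any of 4 libraries).

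At F15, the latest generation sampled, met-2 animals had fewer small RNAs on most of the tested str and sri genes. The summed level over all str and sri genes was 33.2 ± 4.995 CPM in met-2 and 83.5 ± 20.9 CPM in wild type (SD, n = 3 each), with no overlap between 27.4 to 36.1 and 63.8 to 105 CPM. The anti-GFP libraries at F15 had 28.9 to 31.5 CPM in met-2 and 57.2 to 76.1 CPM in wild type, again without overlap. At F3 the sums were 43.1 to 96.4 CPM in met-2 controls and 78.1 to 97.2 CPM in wild-type controls, which overlapped, whereas the anti-GFP libraries did not overlap, with 43.2 to 66.8 CPM in met-2 and 69.6 to 112 CPM in wild type. At P0 the control sums were 55.8 to 91.4 CPM in met-2 and 87.5 to 96.1 CPM in wild type, with overlap. The 8 genes that fell at F15 were sri-5, str-8, str-68, str-90, str-172, str-214, str-227 and str-245. Of these, str-8, str-68, str-172, str-214 and str-245 reached the filter's cutoff of 1.75 CPM in all control libraries of wild type and not of met-2. The filter favours such genes, so the number of falls among the tested genes describes those that passed it. Over all SX1263 libraries the 10 genes with most counts held 71.3% of the families' total. The sums therefore mainly follow the abundant genes, several of which are among these 8, and whether the other genes fell was not tested.

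For str-245, F15 met-2 libraries had 0.162, 0.188 and 0.331 CPM, 4 counts in all, against 41.3, 3.22 and 7.13 CPM in wild type (log2 change -6.14, SE 1.18, adjusted p = 0.00293, edgeR). Wild-type replicate 1 stood far above the other wild-type libraries, and all 3 lay above met-2. For str-8, met-2 had 0.485, 0.563 and 0.165 CPM, against 6.09, 8.12 and 9.88 CPM in wild type (log2 change -4.29, SE 0.47, adjusted p = 9.32e-05, edgeR). For str-68, met-2 had 0.485, 0 and 0.827 CPM, against 5.01, 12.03 and 8.35 CPM in wild type (log2 change -4.18, SE 0.63, adjusted p = 0.000644, edgeR). In none of these did a met-2 library reach the lowest wild-type library.

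The gene str-172, on chromosome IV (4864890 to 4867710, minus strand), had 0.970, 0.938 and 1.16 CPM in met-2 at F15, against 9.13, 6.16 and 7.33 CPM in wild type (log2 change -2.87, SE 0.30, adjusted p = 6.55e-05, edgeR). For str-214, which was higher in the double mutant at P0 and F3, met-2 had 1.45, 0.751 and 0.165 CPM at F15, against 6.62, 3.92 and 3.97 CPM in wild type (log2 change -2.58, SE 0.58, adjusted p = 0.00581, edgeR). The abundant sri-5 on chromosome I (11182795 to 11186206, plus strand) had 4.69, 1.501 and 2.81 CPM in met-2, against 13.8, 9.24 and 9.17 CPM in wild type (log2 change -1.83, SE 0.42, adjusted p = 0.00689, edgeR). Again no library of met-2 overlapped wild type. For str-90, met-2 had 1 count against 41, a pooled ratio of wild type to met-2 of 31.9 with a 95% counting interval of 5.42 to 1291. The 2 genes that rose were str-37 and str-164. For str-164, met-2 had 2.26, 1.69 and 2.65 CPM, against 0.358, 0.560 and 0.611 CPM in wild type (log2 change 2.02, adjusted p = 0.00711, edgeR). The str-164 call was not made in the anti-GFP libraries. For str-12, which was not tested at F15, met-2 had no counts and wild type 1.25, 0.98 and 1.12 CPM.

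**Figure D4:**
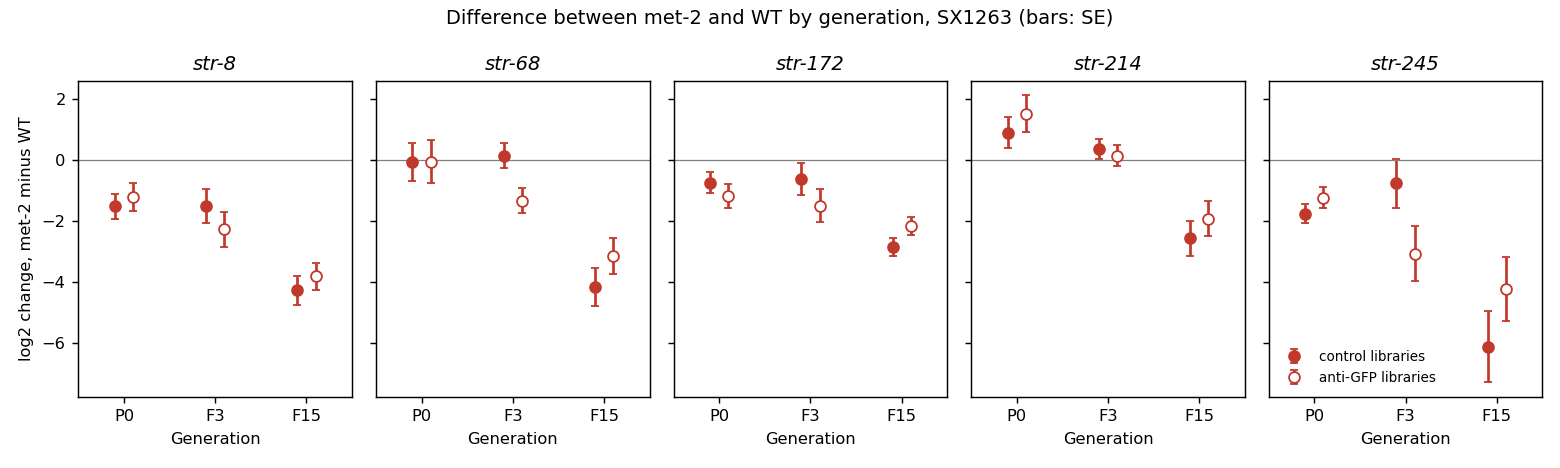
Log2 difference between met-2 and wild type in SX1263 at P0, F3 and F15 for 5 str genes, fitted within each generation, for control libraries (filled) and anti-GFP libraries (open), with bars for 1 SE either way. All 5 genes have their lowest value at F15 in the control libraries, and in the anti-GFP libraries the F3 value lies between those at P0 and F15 for each gene.

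Whether the met-2 difference itself changed between generations was tested in a fit over all SX1263 libraries, a test chosen after seeing the data. The difference was more negative at F15 than at F3 for 5 of 29 genes, where 3.78% of all genes were called, 3.42% with a more negative difference. These were str-245 (-5.34, adjusted p = 0.00656, edgeR), str-68 (-4.31, adjusted p = 0.00214), str-214 (-2.91, adjusted p = 0.00931), str-8 (-2.75, adjusted p = 0.0327) and str-172 (-2.20, adjusted p = 0.0452). The same 5 genes were called for F15 against P0, where 4.44% of all genes were called, 3.67% downward, and food also differed, by -4.38, -4.12, -3.47, -2.77 and -2.12 in the same order. The calls of str-68 and str-214 held without any one of the 12 libraries. That of str-245 between F15 and F3 was lost without F15 wild-type replicate 1 or F3 met-2 replicate 3, and that between F15 and P0 without any of 5 libraries (adjusted p up to 0.276). In the anti-GFP libraries, as the plot by generation shows, none of the 5 was called between F15 and F3, and str-8, str-68 and str-214 were called between F15 and P0. For str-227 the change in the difference was -0.51 between F15 and F3 (adjusted p = 0.957, edgeR) and for str-37 -0.52 (adjusted p = 0.982), so no shift was detected for either. Between F3 and P0 the met-2, set-25 and double-mutant differences shifted for no str or sri gene, with 0.0157, 0 and 0% of all genes called, nor did that of EG6089 (0.341%).

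In met-2 itself, 8 of 29 genes were lower and 1 higher at F15 than at F3 (17.5% of all genes called, 10.9% lower and 6.57% higher, median -1.19 against -0.02 over all genes). The fall of str-245 was 5.65 on the log2 scale and that of str-68 3.58. The single gene that rose, str-161, had 1.94, 2.63 and 1.49 CPM at F15, against 0.577, 0.140 and 0.524 CPM at F3 (log2 change 2.24, adjusted p = 0.0161, edgeR), a call lost without replicate 2 of either generation (adjusted p up to 0.0764). On str-12, met-2 had no count at F15, against 12 counts at F3, at least 3.21-fold lower. Wild type had 0 of 29 genes called by edgeR between F15 and F3 (0.456% of all genes called, 1 str or sri gene at an unadjusted p under 0.05).

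Between F3 and P0 no str or sri gene was called in SX1263 by edgeR in wild type (0.905% of all genes called), met-2 (0.378%), set-25 (0.323%) or the double mutant (5.31%), with 1, 3, 3 and 3 genes at an unadjusted p under 0.05. In EG6089, wild-type F3 animals had fewer small RNAs than P0 animals on 4 of 10 genes (8.42% of all genes called, 3.57% lower). These were str-245 (log2 change -2.08), str-9 (-1.62), str-172 (-1.12) and str-227 (-1.07), with adjusted p from 0.0226 to 0.0328 (edgeR), and each call was lost without any of 4 or 5 of the 6 libraries. The EG6089 double mutant had 2 genes lower at F3 (14.6% of all genes called, 11.3% lower), str-238 (-2.42) and str-8 (-2.31), and each call was lost without any of 3 of the 6 libraries, with adjusted p up to 0.134 and 0.120 (edgeR).

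In the second background, EG6089, the double mutant was sampled at P0 and F3. At P0 str-227 had 0.365, 0.929 and 1.27 CPM in the double mutant, against 6.06, 8.12 and 8.07 CPM in wild type (log2 change -3.19, SE 0.41, adjusted p = 1.24e-05, edgeR). At F3 it had 0, 0.340 and 0.161 CPM, against 2.87, 3.69 and 4.13 CPM (log2 change -4.09, SE 0.55, adjusted p = 2.67e-05). Over all 24 EG6089 libraries the double mutant ran from 0 to 1.27 CPM and wild type from 2.87 to 9.10 CPM. Thus str-227 separated the genotypes in both backgrounds, which again describes a gene picked by its calls.

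The gene str-214 rose in EG6089 as in SX1263. The double mutant had 8.22, 18.8 and 10.7 CPM at P0, against 1.44, 2.71 and 2.37 CPM in wild type (log2 change 2.44, SE 0.41, adjusted p = 0.000168, edgeR). At F3 it had 6.63, 8.83 and 4.50 CPM, against 2.87, 3.35 and 1.94 CPM (log2 change 1.35, SE 0.35, adjusted p = 0.00561). The groups did not overlap at either generation.

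Falls of str-245 and str-8 were also found there. At P0 str-245 had 4.39, 13.7 and 7.62 CPM in the double mutant, against 16.2, 94.5 and 69.5 CPM in wild type (log2 change -2.88, adjusted p = 0.00176, edgeR), and at F3 1.74, 2.38 and 2.89 CPM, against 16.9, 11.1 and 14.1 CPM (log2 change -2.42, adjusted p = 0.000443). Small RNAs on the overlapping aex-5 changed by -5.92 and -4.70 on the log2 scale. At P0 str-8 had 1.83, 2.79 and 2.03 CPM in the double mutant, against 5.20, 8.43 and 4.27 CPM in wild type (log2 change -1.47, adjusted p = 0.00794, edgeR), a call lost without wild-type replicate 2. At F3 it had 0, 1.02 and 0.321 CPM, against 2.54, 5.37 and 3.40 CPM (log2 change -2.91, adjusted p = 0.00191). No library of the double mutant overlapped wild type for either gene.

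**Figure D5:**
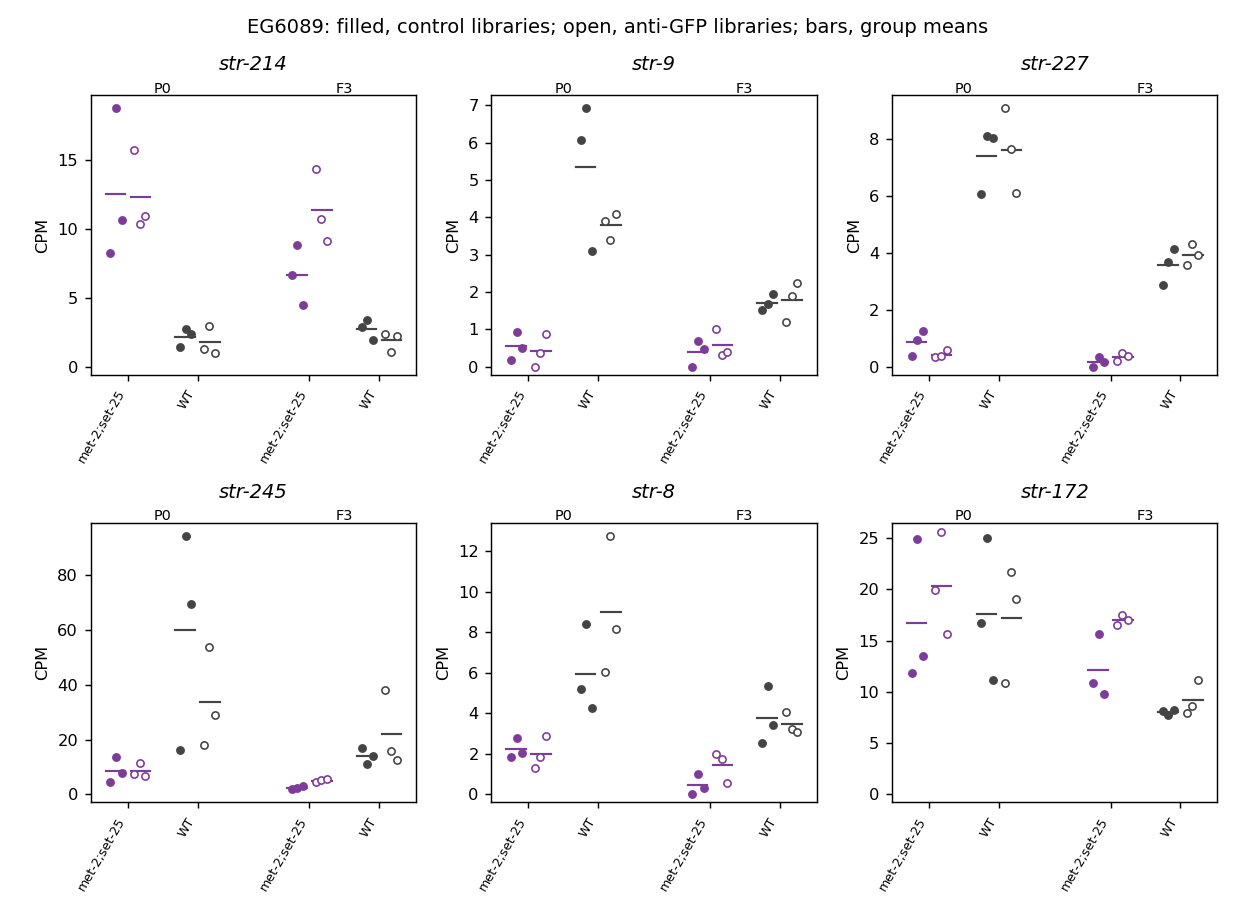
Small RNA level in CPM (linear axes, each gene on its own scale) of 6 str genes in every EG6089 library at P0 and F3, with the double mutant (purple) left of wild type (grey); filled points are control libraries, open points anti-GFP libraries and bars group means. The double mutant lies below wild type for str-227 and str-9 and above it for str-214 in every library of a generation, while for str-172 the groups overlap at P0.

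The plot of EG6089 levels includes str-9, which lies beside str-8 on chromosome V (15758749 to 15760465, plus strand). At P0 it had 0.183, 0.929 and 0.508 CPM in the double mutant, against 6.06, 6.92 and 3.08 CPM in wild type (log2 change -3.33, SE 0.58, adjusted p = 0.000223, edgeR). It overlaps haf-3 on the other strand, a gene for an ABC transporter, whose small RNAs were not called there (log2 change -0.24, adjusted p = 0.303). At F3, str-238 had 3 counts in the double mutant against 21 in wild type, a pooled ratio of wild type to double mutant of 6.47 with a 95% counting interval of 1.93 to 33.9. The rise of str-172 at F3 was small, to 10.8, 15.6 and 9.80 CPM in the double mutant, against 8.11, 7.71 and 8.25 CPM in wild type (log2 change 0.67, adjusted p = 0.0144, edgeR), and was lost without double-mutant replicate 2. For str-37, not tested in EG6089, the double mutant had 1.05, 0.340 and 0.161 CPM at F3, against 0, 0 and 0.243 CPM in wild type.

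The single mutants were also compared with each other. Between met-2 and set-25 at P0, 2 of 28 genes were higher and 4 lower in met-2 (20.2% of all genes called, 11% higher and 9.16% lower). The higher ones were str-141 (log2 change 3.21, adjusted p = 0.00577, edgeR) and sri-62, with 36 counts in met-2 against 2 in set-25, a pooled ratio of 15.7 with a 95% counting interval of 4.04 to 135. The lower ones were str-227 (-2.83), str-12 (-1.85), str-8 (-1.36) and str-262. At F3, str-37 (2.52) and sri-67 (2.14) were higher and str-227 (-3.19) and str-90 (-2.42) lower in met-2 (25% of all genes called, 15.1% higher and 9.93% lower), with overlap between the groups for sri-67 and str-90. With 1 library left out, the calls of sri-67 and str-90 were lost in 4 of 6 fits each, that of str-37 in 1, and at P0 those of sri-62 in 3 and of str-8 in 2.

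Comparisons of the double mutant with each single mutant were added after seeing the data. Against met-2 at P0, 1 gene was called, str-141, lower by 2.29 on the log2 scale (16.6% of all genes called, 10.3% lower). Against met-2 at F3 the double mutant had more small RNAs on str-214 (1.52) and str-68 (1.18) and fewer on str-12 (-5.08) and str-245 (-2.56), where 24.8% of all genes were called, 9.24% higher and 15.6% lower. The fold of str-12 rests on a double-mutant group with no counts, and leaving out single libraries was not run for these comparisons. Against set-25, 5 genes were higher and 2 lower at P0 (19.8% of all genes called, 8.27% higher and 11.5% lower). At F3, 2 were higher and 3 lower (31.5% of all genes called, 14.2% higher and 17.3% lower).

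The anti-GFP libraries are separate libraries of the same genotypes and generations, and gave the mutant differences a further measurement. Of the 58 calls over the 9 comparisons in control libraries, 47 were made in the anti-GFP libraries in the same direction, and all 58 had the same sign. Calls in the anti-GFP libraries came to 8 genes in met-2 at P0 (19.2% of all genes called in those libraries), 11 in the double mutant at P0 (21.8%), 8 in met-2 at F3 (28.6%), 8 in the double mutant at F3 (32.8%) and 9 in met-2 at F15 (30.1%). In EG6089 they came to 5 at P0 (48.6%) and 5 at F3 (50.3%), and in set-25 to 0 at P0 (0.806%) and 0 at F3 (0.962%). The anti-GFP libraries thus gave 54 calls, so the shared calls were 81.03% of the control calls and 87.0% of the anti-GFP calls. Both sets were fitted together, with a shared filter and a shared estimate of the spread. The share of repeated calls over all genes was not computed, so these shares say nothing particular of str and sri genes. Anti-GFP feeding or descent itself was followed by no call on these genes. In 254 tests over the 14 comparisons of anti-GFP with control, edgeR called 0 genes, with a lowest adjusted p of 0.516, and DESeq2 called 0 as well. Of all genes, 0.0079% were called in each of the 4 genotypes at P0 in SX1263. At F3 the shares there were 0.131% for met-2, 0.0962% for the double mutant, 0% for set-25 and 0.00874% for wild type, and at F15 they were 0.0937% for met-2 and 0% for wild type. In EG6089 they were 0.011% for both genotypes at P0, and at F3 0.0224% for the double mutant and 0.0112% for wild type. An unadjusted p under 0.05 was reached in 11 tests, which is 4.33% against 3.18% over all genes.

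Of these 11 tests, 6 were in the EG6089 double mutant at F3, where 6 of 9 str and sri genes had an unadjusted p under 0.05, against 6.55% of all genes. This comparison was singled out from the 14 by its values. Its 9 genes were measured in the same libraries and are not separate measurements. There str-8, str-172, str-214, str-238, str-245 and sri-5 were higher in the anti-GFP libraries by 0.52 to 1.86 on the log2 scale, with adjusted p of 0.592 to 0.760 (edgeR). The median over the 9 genes was 0.83, with 8 above 0, against 0.00336 over all genes. The summed level of str and sri genes there was 69.4 to 84.5 CPM in anti-GFP libraries and 46.7 to 63.9 CPM in controls, without overlap. The sums also did not overlap in EG6089 wild type at F3, with 73.6 to 97.7 CPM in anti-GFP libraries and 69.4 to 73.0 CPM in controls, and they overlapped in the other 12 of the 14 comparisons.

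Some receptors of these families have a known role, and their small RNAs were too few to test. The marker of AWB neurons str-1 had 2 counts over all SX1263 libraries and 1 over all EG6089 libraries, and str-2, expressed in 1 of the AWC pair, had 4 and 0. The ASI gene str-3 had 17 and 1, sri-14, a receptor for avoidance of concentrated diacetyl in ASH, had 1 and 0, and str-217, needed for the response to DEET in ADL, had none in either. The food-odour receptor of AWA str-44 had 57 and 21. It had 0.323, 0 and 0.827 CPM in met-2 controls at F15 and no counts in wild-type SX1263 controls.

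Genes that act with these receptors were taken from lists of chemosensory signalling, receptor and cilia traffic, and sensory neuron fate. Of the signalling genes with a row, 38 of 56 were tested at P0. There 9 were higher and 2 lower in met-2 (28.9% called, against 23.5% of all genes), 0 were called in set-25 (0.956% of all genes), and 7 were higher and 2 lower in the double mutant (23.7% against 25.3%). At F3, 31 were tested, 10 higher and 3 lower in met-2 (41.9% against 28.1%) and 8 higher and 3 lower in the double mutant (35.5% against 38.3%). At F15, 30 were tested, 8 higher and 4 lower in met-2 (40% against 36.5%). In EG6089, 9 of 28 were higher and 4 lower at each generation (46.4%, against 45.9% of all genes at P0 and 50.9% at F3).

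Within signalling, rgs-3, a regulator of G protein signalling in sensory neurons, had the largest of these rises at F15, to 447 ± 332 CPM in met-2 against 7.41 ± 1.43 CPM in wild type (SD, n = 3 each; log2 change 5.90, adjusted p = 8.2e-05, edgeR). The calcineurin subunit tax-6 rose in met-2 on the log2 scale by 1.36 at P0, 1.61 at F3 and 1.46 at F15. The G protein alpha subunit gpa-9 fell to 167 ± 57.8 CPM in met-2 against 630 ± 188 CPM in wild type at F15 (log2 change -1.92, adjusted p = 0.000721, edgeR). The guanylyl cyclase odr-1, which signals below odorant receptors in AWC and AWB, fell to 7.68 ± 1.43 CPM in met-2 against 63.04 ± 2.25 CPM in wild type at F15 (log2 change -3.04, adjusted p = 2.22e-05, edgeR). The G protein alpha s subunit gsa-1 fell there too, by 4.01 on the log2 scale.

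Of the receptor and cilia traffic genes, 27 of 36 were tested at P0 and at F3. At P0, 9 were higher and 0 lower in met-2 (33.3% called, against 23.5% of all genes), 0 higher and 1 lower in set-25 (3.70% against 0.956%), and 6 higher and 1 lower in the double mutant (25.9% against 25.3%). At F3, 8 were higher and 0 lower in met-2 (29.6% against 28.1%), 1 higher and 1 lower in set-25 (7.41% against 1.11%), and 6 higher and 0 lower in the double mutant (22.2% against 38.3%). At F15, 9 of 22 were higher and 1 lower in met-2 (45.5% against 36.5%), with a median of 1.06 on the log2 scale, against -0.01 over all genes and -2.58 for the str and sri genes tested there. In EG6089, 13 of 18 were higher and 1 lower at P0 (77.8% against 45.9%), and 12 higher and 3 lower at F3 (83.3% against 50.9%). The kinesin-II subunit kap-1 rose in met-2 on the log2 scale, by 1.95 at P0, 1.77 at F3 and 3.19 at F15, and the transition zone gene nphp-1 by 2.03, 2.18 and 1.36. In set-25 the gene called lower at P0 was osm-3, a kinesin of the ciliary tip, which fell to 595 ± 70.7 CPM against 1705 ± 98.6 CPM in wild type. Of the 29 fate genes with a row, 13 were tested at P0 and 7 at F15. The zinc-finger gene lsy-2 changed on the log2 scale in met-2 by -1.14 at P0, -0.83 at F3 and -1.83 at F15. It changed in the SX1263 double mutant by 0.84 at P0 and 0.74 at F3, and in the EG6089 double mutant at F3 by -0.84 (adjusted p = 0.000775, edgeR). Other fate genes differed in direction. In met-2 at F15 nsy-7 rose by 0.98. In the double mutant nsy-4 changed by -2.48 at P0 and -3.18 at F3 in SX1263, and by 1.35 and 1.78 in EG6089. The summed level of the 29 genes at F15 was 348 to 676 CPM in met-2 against 263 to 302 CPM in wild type, the opposite direction to lsy-2. At P0 these sums overlapped.

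The other chemoreceptor families together had 1033 rows. At F3, 71 of them (6.87%) were tested, against 7.94% of the str and sri rows, and 12 were higher and 14 lower in met-2 (36.6% called, against 28.1% of all genes). At F15, 46 were tested, 7 higher and 19 lower in met-2 (56.5% called, against 36.5% of all genes), with a median of -0.83 on the log2 scale, against 2 higher and 8 lower of 13 and a median of -2.58 for str and sri. In the EG6089 double mutant the other families had more higher than lower genes, 16 and 7 of 39 at P0 (58.97% called, against 45.9% of all genes) and 16 and 8 of 34 at F3 (70.6% against 50.9%), with medians of 0.37 and 0.58. There str and sri had 1 higher and 4 lower at P0 and 2 higher and 4 lower at F3. Whether the families differ from each other was not tested.

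By pattern over the 10 SX1263 control groups, the genes most like str-245, which had the widest range of group means, were ZK1127.6 (Pearson r = 0.97 of log2 CPM), E01G4.5 (0.97) and plp-1 (0.96). Those most like str-68 were C44B12.6 (0.99), aars-2 (0.98) and H13N06.2 (0.97). These correlations over 10 group means, which share libraries and scaling, are descriptions only.

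Small RNAs on markers of several cell types differed between the same groups. The summed level of 22 neuronal genes at F15 was 525 to 997 CPM in met-2, against 293 to 376 CPM in wild type, the opposite direction to the summed str and sri level. At F3 it was 554 to 731 CPM in met-2, 547 to 684 CPM in set-25 and 722 to 870 CPM in the double mutant, against 279 to 390 CPM in wild type. In EG6089 at F3, over the 21 neuronal genes with a row, it was 1141 to 1317 CPM in the double mutant, against 239 to 251 CPM in wild type. The 22 intestinal genes summed to 110 to 170 CPM in met-2 at F15, against 59.9 to 72.0 CPM in wild type. At F15 the groups overlapped for the 44 sperm genes, with 266 to 424 CPM in met-2, against 237 to 280 CPM in wild type. They also overlapped there for the 20 oogenesis genes, with 1959 to 2633 CPM in met-2, against 2378 to 2816 CPM in wild type. The sperm genes did differ at earlier generations. At P0 they summed to 445 to 536 CPM in met-2, against 275 to 353 CPM in wild type. At F3 met-2 had 393 to 521 CPM, against at most 265 CPM in wild type. The double mutant lay below every wild-type library at F3. It had a mean of 183 CPM in SX1263, against 248 CPM in wild type. In EG6089 it had 194 to 200 CPM, against 236 to 290 CPM. The part of these differences in the results on str and sri genes was not tested.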

How the data were processed

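The deposited files give raw counts of small RNA reads per gene from HTSeq, 1 file per library. Per the submitters' processing notes, the authors used cutadapt, FastQC, Bowtie2, HTSeq and DESeq2 with the builds WBcel235 and ce11; the strand and the length range counted are not given in the sources used here. The labels' protocols name TRIZOL extraction and a NEBNext or a TruSeq small RNA kit, without saying which library used which. Rows that the counter keeps for unassigned reads (50.8 to 62.0% of records in SX1263, 29.2 to 42.4% in EG6089) were excluded from totals and tests. Gene identifiers were matched to the Ensembl annotation of WBcel235 for 20159 and 19902 rows. In 6 further rows RefSeq alone gives a str name, and these were not used as str genes.

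Counts of all genes were tested with edgeR 4.0.16 (R 4.3.3, limma 3.58.1) by the robust quasi-likelihood F test, two-sided, after TMM scaling and the filterByExpr filter (minimum count 10, minimum total 15). Each fit held every group of 1 background and 1 generation, or every group of 1 background where generations were compared, and p-values were adjusted over all genes tested. Levels are CPM on the gene total scaled by TMM. Pooled ratios carry exact 95% binomial intervals, and a fold against 0 counts uses 3 counts per group as the floor. The F3 fits of SX1263 and EG6089 were run on simulated counts with set changes in randomly chosen genes, and the other fits were not simulated.

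The genes, the gene lists, the tests and the alternatives were chosen with earlier results of these data known. Genes were named by a rule. It took up to 4 calls each way per mutant comparison (2 CPM or more in the higher group), the 6 highest genes per kb in each background, genes called alike in met-2 at 3 generations or in both backgrounds, up to 3 each way in other comparisons, and 6 genes of known role. The remaining called genes, and those of the gene lists, were chosen once their values had been seen. The settings varied were the scaling (RLE), the filter (none), the test (DESeq2 1.42.0), a replicate block, a fit to the compared groups alone, the anti-GFP libraries and leaving out each library. Replicate numbers were taken to pair libraries where every correlation of same-numbered libraries was over 0.1, which held for set-25 and for the double mutant against wild type at P0 in SX1263, for F3 against P0 in met-2, and for 7 of the 14 anti-GFP comparisons.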

Additional observations from a re-analysis of the deposited data

Results flagged for a closer look

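The met-2 difference from wild type in SX1263 controls was more negative at F15 than at an earlier generation for 5 str genes, by a test of that difference. Against F3 the shift on the log2 scale was -5.34 for str-245, -4.31 for str-68, -2.91 for str-214, -2.75 for str-8 and -2.20 for str-172. Against P0 it was -4.38 for str-245, -4.12 for str-68, -3.47 for str-214, -2.77 for str-8 and -2.12 for str-172. In the F15 control libraries every met-2 library lay below every wild-type library for each of these 5 genes. The genes were picked by their difference in these same libraries, so the lack of overlap describes them and is no separate test. At F3, met-2 overlapped wild type for str-68, str-172, str-214 and str-245, and not for str-8. The shifts of str-68 and str-214 were called without any one of the 12 libraries, and those of str-172 were lost without any of 9 libraries for F3 and any of 8 for P0. For str-8 they were lost without any of 6 and any of 2, and for str-245 without any of 2 (-5.87 to -3.30 over the 12 fits) and any of 5 (adjusted p up to 0.276). Summed small RNAs on 22 neuronal genes were higher in met-2 than in wild type at every generation, and their part in the shifts was not tested.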

How the results depend on the processing

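Values here are numbers of str and sri genes called. A fit to the compared groups alone gave 6 in place of 10 for met-2 at P0, 1 in place of 7 for met-2 at F3, 5 in place of 10 for the double mutant at F3, 1 in place of 4 for met-2 against set-25 at F3 and 1 in place of 9 for met-2 at F15 against F3, and it gave 1 in place of 0 for set-25 at F3, as did DESeq2. In EG6089 the double mutant at F3 had 11 in place of 6 without the low-count filter, and between F3 and P0 it had 2, against 4 with DESeq2 or a replicate block and 1 without the filter or in a fit to its groups alone. The anti-GFP libraries gave 0 in place of 1 for set-25 at P0, and for the shift of the met-2 difference 0 in place of 5 from F3 to F15 and 3 in place of 5 from P0 to F15. A replicate block gave 13 in place of 6 for met-2 against set-25 at P0 and 15 in place of 10 for met-2 at P0, where the replicate numbers did not pair the libraries by the rule, and changed no count by over 1.5 times where they did. The causes of these changes were not tested. With 1 library left out, the counts ran from 5 to 10 for met-2 at P0, from 4 to 7 for it at F3 and from 10 to 11 for it at F15, from 0 to 1 for set-25 at P0 and 0 to 0 at F3, and from 5 to 9 and 8 to 10 for the double mutant at P0 and F3. They ran from 4 to 5 and 5 to 6 in EG6089 at P0 and F3, from 4 to 6 and 1 to 5 for met-2 against set-25 at P0 and F3, and from 6 to 9 for F15 against F3 in met-2. For F3 against P0 they ran from 0 to 4 in EG6089 wild type, 0 to 5 in the EG6089 double mutant and 0 to 1 in the SX1263 double mutant. For the shift of the met-2 difference they ran from 2 to 5 (F15 against F3) and 3 to 6 (F15 against P0). The 85 named calls were checked in other settings wherever the gene was still tested, which gave 977 checks. None changed sign, and in 145 the call was lost. A gene that was not tested in a setting is left out of these numbers, so they understate the calls lost. Depth is a limit: 223 of 254 genes had too few counts for any test, so nothing is known of a difference in them.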
